A study of Mus musculus with 12 samples.

Results

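The miR-379 to miR-410 cluster is the distal group of miRNA hairpins in the imprinted Dlk1-Dio3 region of the mouse. Its members were taken by hairpin number alone, with any star or arm suffix, a rule that uses no measured value. The rule found 52 of the 689 miRNA entries of the table, from 37 hairpins. Of these entries 31 had a plain name, 9 carried a star and 12 a -5p or -3p suffix.

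The cells were mouse embryonic stem cells, kept on gelatin with leukemia inhibitory factor, in which doxycycline switches on AGO2 with HA and Flag tags. Both induced groups received doxycycline at 2.5 ug/ml for 15 h, and both control groups received none. In each state RNA was recovered with the anti-FLAG M2 antibody from a nuclear and from a total fraction, with 3 libraries per group and 12 in all. Cells of all 4 groups carried the same inducible transgene, and by their labels the controls differ from the induced cells in doxycycline only. The protocol speaks of a cytoplasmic fraction where the sample labels say "Total", and which of these it was is not settled here. An induced, tagged AGO2 is not the cell's own protein, and whether the line was 1 clone is not given in the sources used here. The table holds the authors' mean count for each group, so there is no replicate check: every interval below is a 95% interval for counting error, and no p-value is given.

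AGO2 is an Argonaute protein, the carrier that uses a miRNA to find target RNA. A hairpin is cut into a short duplex of a 5p and a 3p strand, of which one usually stays in Argonaute while the other, the star strand in older names, is mostly lost. The Dlk1-Dio3 miRNAs are made from long noncoding RNA of the maternal chromosome, and silencing of this region is known to mark mouse induced pluripotent stem cells with reduced developmental potential. In brain the cluster is known for its part in dendrites and synapses.

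On GRCm38, the assembly also called mm10, the 37 hairpins lie on the plus strand of chromosome 12 within 34.7 kb, at chr12:109709060-109743795. Of these, 13 lie in Mirg, a long noncoding RNA gene at chr12:109729764-109749460, where 8 overlap an exon. The other 24, from miR-379 to miR-544, lie upstream of it and overlap no GENCODE gene other than the miRNAs themselves.

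Depth differed widely. The means of all entries summed to 400794 reads for induced nuclear AGO2, 539627 for induced total AGO2, 36330 for the nuclear control and 16053 for the total control. A count of 0 over a group allowed up to 2.50, 1.85, 27.5 and 62.3 CPM, the usual unit scaled to depth, in that order. The identity of the cells was checked with marker miRNAs. The 20 entries of the miR-290 to miR-295 and miR-302/367 clusters, markers of embryonic stem cells, took 65.6% of nuclear and 68.8% of total reads with doxycycline. Markers of fibroblasts and mesenchyme took 0.102% and 0.131%, neural markers 0.789% and 0.586%, blood markers 0.895% and 0.771%, and muscle and liver markers 0.0129% and 0.0120%. Without doxycycline the stem cell markers took 14.2% of nuclear and 32.0% of total reads, or 39.0% and 48% when the entry miR-805, which dominated the controls, was left out of the sum. With miR-805 in the sum the other lists took 0.182% and 0.293%, 0.462% and 0.750%, 1.16% and 1.38%, and 0.703% and 0.483%, in the same order. With it left out they took 0.500% and 0.439%, 1.27% and 1.12%, 3.19% and 2.07%, and 1.93% and 0.724%. The part that RNA of other cells had in the results was not tested.

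The mature sequences of 49 entries were found in RefSeq (GRCm38.p6) and were 19 to 25 bases long. miR-376c, miR-487b and miR-485 are named only. The strand meant by a plain or starred name was taken from the older miRBase naming, since the table gives no sequence. Each sequence is written 5′ to 3′ with its seed, bases 2 to 8, in capitals. The first set holds the most abundant members, which decide the level of the cluster, with both arms of miR-382 and of miR-409 for the comparison of strands.
miR-379: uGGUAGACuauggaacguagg
miR-376b: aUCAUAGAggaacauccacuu
miR-376a: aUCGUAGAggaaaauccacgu
miR-134: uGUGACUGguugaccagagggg
miR-409-3p: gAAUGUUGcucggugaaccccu
miR-409-5p: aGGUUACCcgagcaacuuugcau
miR-541: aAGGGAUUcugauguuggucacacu
miR-382: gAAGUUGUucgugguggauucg
miR-382*: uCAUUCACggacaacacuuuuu
miR-411: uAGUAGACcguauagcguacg

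The second set holds members that stood highest or lowest in the nuclear fraction relative to the total fraction.
miR-377: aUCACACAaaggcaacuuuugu
miR-1197: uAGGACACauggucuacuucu
miR-495: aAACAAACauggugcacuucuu
miR-543: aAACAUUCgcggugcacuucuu
miR-544: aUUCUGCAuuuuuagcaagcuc
miR-380-3p: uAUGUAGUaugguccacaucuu
miR-154: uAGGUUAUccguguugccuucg

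The third set holds members with few or many reads in cells without doxycycline relative to the induced cells.
miR-323-3p: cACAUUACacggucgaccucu
miR-410: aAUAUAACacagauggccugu
miR-299: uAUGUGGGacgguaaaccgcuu
miR-679: gGACUGUGaggugacucuuggu
miR-300*: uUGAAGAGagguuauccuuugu

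Many of the hairpins are related copies, and their seeds were nearly all different. Of the 49 entries with a sequence, only miR-376b* and miR-376c* shared a full seed, UGGAUAU, and their mature forms differed at 1 of 22 bases. Seeds 1 base apart were found for miR-379 and miR-411, for miR-300 and miR-381, for miR-376a and miR-376b, and for miR-154* and miR-485*, among others. miR-300 and miR-381 had 16 bases in a row in common, CAAGGGCAAGCUCUCU. miR-495 and miR-543 had 12, GGUGCACUUCUU, at the 3′ end, while their seeds differed at 2 bases. Outside the cluster, the seed of miR-495 was also that of miR-1192, the seed of miR-329 that of miR-362-3p and the seed of miR-412 that of miR-1983, among entries matched by exact name. For 14 of the 52 entries, the mean times 3 was not whole to within 1e-06, as happens when reads are divided between entries. These 14 included miR-376a, miR-376b, miR-376c, miR-300 and miR-381, so the values of such near copies are uncertain individually.

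With doxycycline the cluster was read abundantly from AGO2 of both fractions and made up a smaller share of nuclear than of total reads. It took 2.65% (Wilson interval 2.62 to 2.68) of nuclear reads and 3.21% (3.18 to 3.23) of total reads. Without doxycycline it took 1.33% (1.26 to 1.40) and 2.35% (2.22 to 2.49). miR-805, an entry with no RefSeq miRNA gene, dominated the libraries without doxycycline. With that entry left out of the sum the shares were 2.74% and 3.23% with doxycycline and 3.65% and 3.52% without it, so the direction between induced and control cells turned in both fractions.

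In the nuclear fraction with doxycycline all 52 entries had reads, 46 had a mean of at least 10 and 23 at least 100. The total fraction had reads for 49, a mean of at least 10 for 46 and at least 100 for 27. Only miR-453, miR-654-3p and miR-654-5p were at 0 there. These 3 entries, miR-412 and miR-668 stayed below 10 in all 4 groups, and miR-323-5p and miR-544 each reached it in 1 group only. Without doxycycline 18 entries in the nuclear fraction and 11 in the total reached a mean of 10.

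miR-379, the first hairpin of the cluster, had the highest level in both induced fractions, with a mean of 1165 nuclear and 2601 total reads when induced and 29.7 and 68.3 in the controls. miR-376b, of a family known for A-to-I editing in human and mouse brain, had 1158 and 1778 reads in the induced fractions and 12.4 and 13.8 in the controls. These 2 entries were next to equal in the nuclear fraction and well apart in the total fraction. miR-134, which limits the size of dendritic spines in rat neurons and promotes differentiation of mouse embryonic stem cells, had 531 and 1218 reads in the induced fractions and 10 and 13.3 in the controls. When induced, the 3 most abundant entries made up 28.3% of the cluster's nuclear reads and 32.3% of its total reads, and the 10 most abundant 61.3% and 66.9%.

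**Figure D1:**
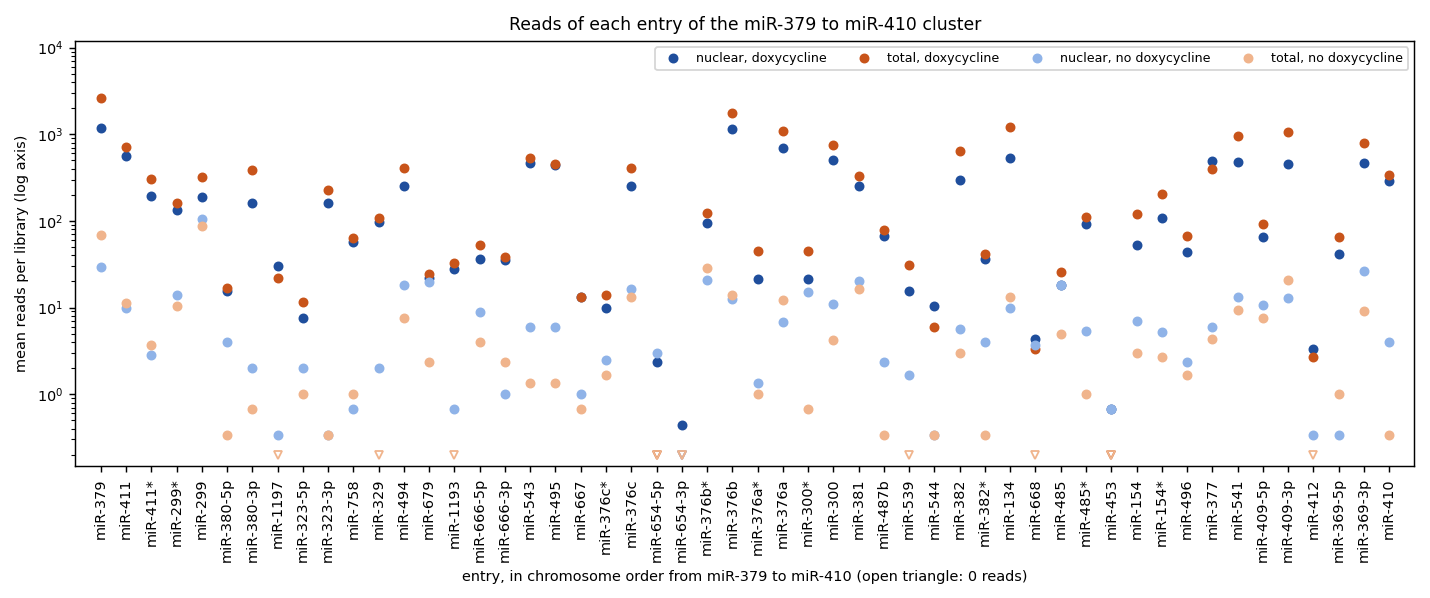
Mean reads per library (log axis) of all 52 entries in chromosome order, 1 point for each of the 4 groups and an open triangle for a mean of 0; the axis is not scaled to depth. Abundant entries such as miR-379, miR-376b and miR-134 are spread along the whole cluster, and miR-299 stands out by having 104 nuclear and 86.7 total reads without doxycycline.

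Abundance followed no block along the chromosome, as abundant and rare hairpins alternated. miR-654, which lies between miR-376c and miR-376b, had 2.33 nuclear reads on its 5p and 0.443 on its 3p arm and none in the total fraction with doxycycline. Its neighbour miR-376b was the second most abundant entry. Reads of different miRNAs also depend on how well each sequence is ligated, which the table does not show.

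The order of the members was alike in both fractions with doxycycline, with Spearman's rho of 0.98 over 52 entries that share the same libraries. Some members changed place. miR-377 ranked 7 in the nuclear fraction and 15 in the total, miR-411 ranked 4 and 9, and miR-409-3p ranked 11 and 5. Levels with and without doxycycline were less alike, with rho of 0.57 in the nuclear fraction and 0.73 in the total.

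To compare members between nuclear and total AGO2, mean counts were scaled with TMM factors, and the log2 fold is the nuclear over the total value. An entry was tested if it had a mean of at least 10 in either group. Of 47 tested members, 1 was at least 2-fold higher in the nuclear fraction and 0 were at least 2-fold lower. Of all 378 entries tested, 10.3% passed 2-fold in the higher and 3.97% in the lower direction. Smaller differences were frequent: the counting interval lay below no change for 19 members and above it for 7, and spanned it for 21. Over all tested entries it lay below no change for 31.2% and above it for 29.1%, against 40.4% and 14.9% of the tested members. The median log2 fold of the members was -0.11, and that of all tested entries -0.04.

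The members below no change included 4 of the 6 5p strands with at least 100 reads in both fractions, namely miR-379, miR-134, miR-541 and miR-382. miR-379 had a log2 fold of -0.75 (-0.80 to -0.69) and miR-134 of -0.78 (-0.87 to -0.70). miR-541 had a mean of 477 nuclear and 946 total reads when induced, and 13.3 and 9.33 in the controls, for a fold of -0.57 (-0.67 to -0.48). miR-382 had 295 and 642 when induced and 5.67 and 3 in the controls, for a fold of -0.71 (-0.83 to -0.59). miR-154, a 5p strand with 52 and 120 reads and 7 and 3 in the controls, was at -0.80 (-1.08 to -0.52). All of these were less than 2-fold apart, and without scaling miR-379, miR-134, miR-382 and miR-154 passed 2-fold, at -1.16, -1.20, -1.12 and -1.21.

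A pair of 3p strands lay as low, and miR-380-3p was the lowest of all tested members. It had a mean of 159 nuclear and 386 total reads when induced and 2 and 0.667 in the controls, for a log2 fold of -0.87 (-1.03 to -0.71). miR-409-3p had 449 and 1048 when induced and 13 and 20.7 in the controls, for a fold of -0.81 (-0.90 to -0.72). Other 3p strands were nearer to no change, with miR-376a at -0.27 (-0.35 to -0.19), miR-376b at -0.21 (-0.27 to -0.14) and miR-300 at -0.13 (-0.22 to -0.03). miR-369-3p, known to act with AGO2 in raising translation of tumour necrosis factor in quiescent human cells, was at -0.34 (-0.44 to -0.24), with 466 nuclear and 786 total reads. miR-494, miR-376c, miR-154*, miR-411* and miR-299, which also had at least 100 reads in each fraction, lay below no change at folds from -0.51 to -0.21. For miR-299 the control reads were 55.8% of the induced reads in the nuclear fraction and 27.1% in the total. With control reads subtracted its fold moved from -0.36 to -0.95, and the others of this list lay from -0.43 to -0.08.

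All 7 members above no change were 3p strands. miR-377 had a mean of 495 nuclear and 393 total reads when induced and 6 and 4.33 in the controls, for a log2 fold of 0.75 (0.64 to 0.86). Of the members with at least 100 reads it was the 1 with more nuclear than total reads before any scaling. miR-1197 had 30 and 21.7 reads when induced, and 0.333 and 0 in the controls, for a fold of 0.88 (0.41 to 1.37). miR-544, at 1.20 (0.31 to 2.12), was the member past 2-fold. It had only 10.3 nuclear and 6 total reads, so it passed the minimum through the nuclear fraction, and a higher nuclear value followed from that filter.

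The other 4 were miR-495 at 0.36 (0.25 to 0.47), miR-543 at 0.21 (0.11 to 0.32), miR-329 at 0.25 (0.02 to 0.49) and miR-410 at 0.19 (0.06 to 0.32), and without scaling all 4 turned to -0.05, -0.20, -0.16 and -0.23. miR-495 had a mean of 441 nuclear and 457 total reads, and miR-543 had 463 and 531. miR-329, which is induced by activity in rat neurons, had 97.3 and 109, and miR-410, the last hairpin of the cluster, 290 and 339. miR-411, next to miR-379 on the chromosome, showed no difference beyond counting error at 0.07 (-0.02 to 0.16). Neither did miR-381, miR-299*, miR-323-3p, miR-376b* and miR-485*, nor miR-667, miR-666-3p and miR-380-5p, whose folds of 0.41, 0.32 and 0.26 rested on few reads.

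**Figure D2:**
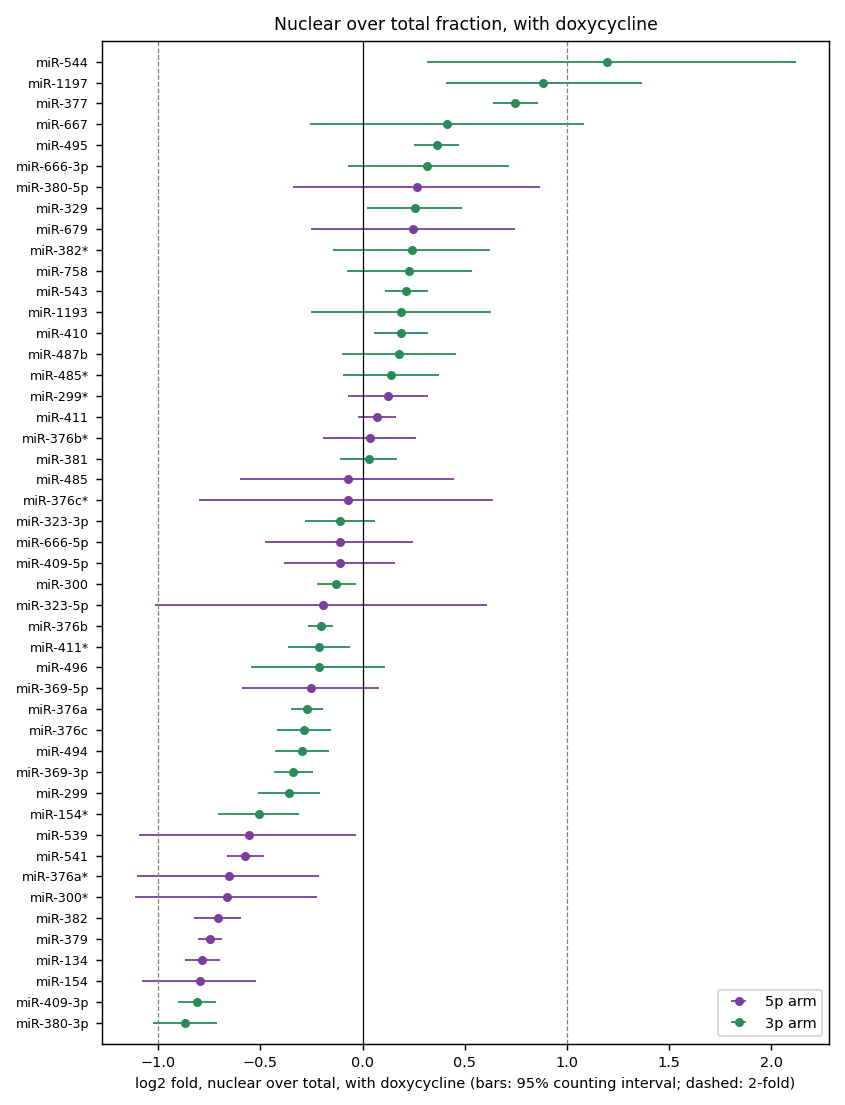
Log2 fold of nuclear over total reads with doxycycline for the 47 tested entries, sorted, with 95% counting intervals; colour gives the strand, and dashed lines mark 2-fold. miR-380-3p is lowest at -0.87 and miR-544 highest at 1.20, and the 7 entries with an interval above 0 are all 3p strands.

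By strand, 8 of 19 tested 5p members had an interval below no change and 0 above it, with a median log2 fold of -0.19. Of 28 tested 3p members 11 lay below and 7 above, with a median of 0.08. The sign of this median turned among abundant members: it was -0.21 for the 17 3p strands with at least 100 reads in both fractions, of which 12 lay below 0. Among entries outside the cluster whose names end in -5p, 10 of 40 lay below and 12 above (median -0.08), and among those ending in -3p 8 of 35 and 9 (median 0.06). Whether the strands of the cluster differ more than those of other hairpins was not tested.

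Related members did not always have like folds. The difference between miR-411 and miR-379, neighbours with seeds 1 base apart, was 0.82 (0.71 to 0.92) on the log2 scale, and between miR-485* and miR-154* it was 0.65 (0.35 to 0.95). The first pair differed at 7 of 21 bases and the second at 6 of 22. For miR-381 and miR-300 it was 0.16 (-0.01 to 0.32), for miR-495 and miR-543 0.15 (-0.00 to 0.30), and for miR-376b and miR-376a 0.07 (-0.03 to 0.17). These pairs were closer in sequence, with 3 of 22, 4 of 22 and 3 of 21 bases different. Counting error could not separate the members of these last 3 pairs, and reads may be divided between miR-300 and miR-381 and within the miR-376 family. These differences do not depend on how the fractions are scaled.

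Abundant members weighed most in the lower nuclear share of the cluster. In CPM the cluster had 26511 in the nuclear fraction and 32071 in the total. miR-379, miR-134, miR-409-3p, miR-541 and miR-382 together differed by -4684 CPM, nuclear minus total, the largest single differences. Of all members 27 had a lower CPM in the nuclear fraction, by -6967 in sum, of which these 5 made up 67.2%, and 25 had a higher CPM, by 1406 in sum. The largest nuclear surplus was that of miR-377, with 1235 against 728 CPM.

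The proximal group of the same region, 24 entries of hairpins around the antisense transcript of Rtl1, served as the nearest comparison. It took 1.97% of nuclear and 1.91% of total reads with doxycycline. The cluster had 1.34 times the reads of the proximal group in the nuclear fraction and 1.68 times in the total, a difference of -0.32 (-0.35 to -0.29) on the log2 scale that does not depend on scaling. It shrank to -0.11 (-0.15 to -0.08) without the proximal hairpin miR-136, whose plain entry had 1173 nuclear and 586 total reads. Without miR-136 and miR-379 it was -0.05 (-0.08 to -0.01), so these 2 hairpins carried most of it. The medians were close, at -0.11 for the cluster and -0.08 for the 20 tested proximal entries, of which 2 were at least 2-fold higher and 0 lower. Between the control fractions the difference of cluster over proximal reads was -1.64 (-1.83 to -1.46). It was -0.47 (-0.68 to -0.26) without the proximal hairpin miR-337.

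**Figure D3:**
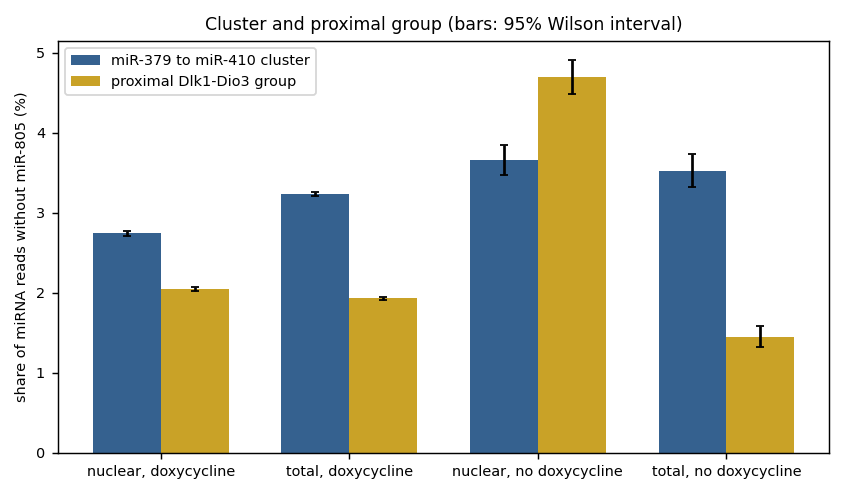
Share of miRNA reads without miR-805 (%) taken by the miR-379 to miR-410 cluster and by the proximal group in each of the 4 groups, with 95% Wilson intervals for counting error. The cluster takes 2.74% of nuclear and 3.23% of total reads with doxycycline, and the proximal group 2.04% and 1.93%.

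Arm use within a hairpin also does not depend on scaling. In 13 hairpins both arms had a mean of at least 10 in both fractions with doxycycline, and the same arm was the more abundant in both fractions in all 13. The 3p arm led in 10 of them and the 5p arm in miR-382, miR-411 and miR-666. In miR-666 the nuclear arms were nearly equal, with a 5p share of 50.5% (43.8 to 57.1). The counting interval of the log2 odds ratio excluded no difference in 7 hairpins, or 53.8%, and in 53.2% of 77 hairpins outside the cluster with both arms listed at that depth. The 5p share was higher in the nuclear fraction in 5 of the 7 and lower in 2. With control reads subtracted and their counting error included, the interval excluded no difference in 7 of 14 hairpins, with 3 higher and 4 lower. These 14 needed only some reads left on both arms in both fractions, not a mean of 10, which added miR-323. The matching count over hairpins outside the cluster is not given. After subtraction miR-376b and miR-380 no longer passed, and miR-154 and miR-666 did, both with a lower 5p share. The leading arm then differed between the fractions in miR-299 and miR-666. The 5p share was 58.8% nuclear and 39.3% total in miR-299, and 44.2% and 57.4% in miR-666.

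The less abundant strand held a larger share of the nuclear reads in several of these hairpins. In miR-382 the star strand, the 3p arm, had a mean of 36.7 nuclear and 41.3 total reads, or 11.1% and 6.05% of the hairpin's reads, for log2 odds of the 5p arm of -0.95 (-1.34 to -0.56). In miR-380 the 5p arm had 15.3 and 17.0 reads, or 8.81% and 4.22%, for log2 odds of 1.13 (0.54 to 1.73). In miR-409 the 5p arm had 64.3 and 92.7 reads, or 12.5% and 8.13%, for log2 odds of 0.70 (0.42 to 0.98). In each of these 3 hairpins the abundant strand was the one lower in the nuclear fraction, and the interval of the other strand's own fold spanned no change.

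miR-411 went the other way, since its abundant 5p arm took 74.4% of nuclear and 70.5% of total reads, for log2 odds of 0.28 (0.11 to 0.46). In miR-300 the star strand took 4.02% of nuclear and 5.72% of total reads, for log2 odds of -0.53 (-0.97 to -0.10). In miR-376b the star strand took 7.56% and 6.47%, for log2 odds of 0.24 (0.01 to 0.47). In miR-299, whose named strand had many reads without doxycycline, the star strand took 41.4% and 33.5%, for log2 odds of 0.49 (0.24 to 0.73). Without subtraction the arm use of the other 6 hairpins, miR-154, miR-369, miR-376a, miR-376c, miR-485 and miR-666, could not be told apart between the fractions beyond counting error. With it miR-154 was at -0.41 (-0.79 to -0.03) and miR-666 at -0.77 (-1.39 to -0.14), and miR-485 had too few reads left on its 5p arm for a useful interval. Subtraction also moved miR-299 to 1.14 (0.72 to 1.57) and miR-300 to -2.24 (-3.82 to -0.67). It left miR-411 at 0.28 (0.10 to 0.46), and miR-376b was at 0.27 (-0.05 to 0.60).

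**Figure D4:**
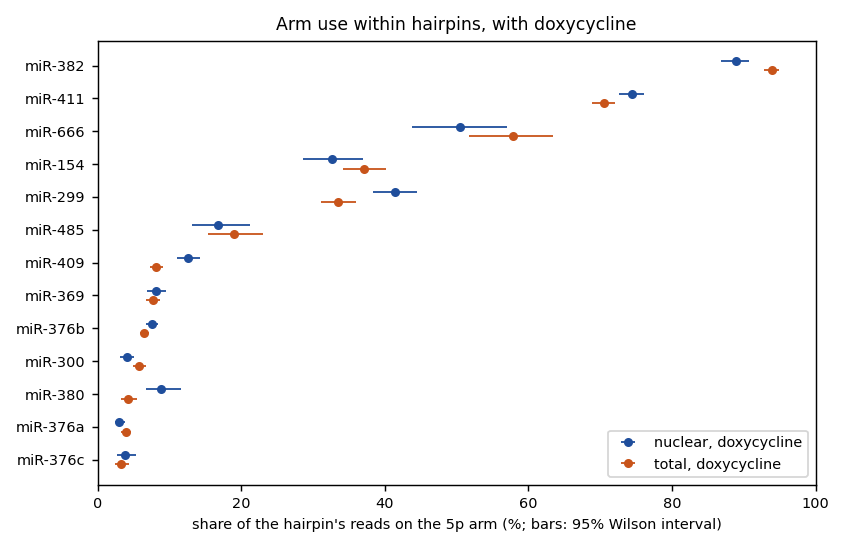
Share of each hairpin's reads on its 5p arm (%) with doxycycline in the nuclear and total fraction, for the 13 hairpins with at least 10 mean reads on both arms in both, with 95% Wilson intervals. Control reads are not subtracted here. The same arm leads in both fractions in all 13, though only just in the nuclear fraction of miR-666 (50.5%). The 5p share of miR-382 is 88.9% in the nuclear fraction and 93.9% in the total.

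The control cells show how many reads of each member were recovered without doxycycline. Whether they made some tagged AGO2 was not tested. The summed reads of the cluster were 22.0 times higher with doxycycline in the nuclear fraction and 45.8 times higher in the total fraction. For all miRNA entries without miR-805 these ratios were 29.4 and 49.9, and they also depend on how deeply the libraries were sequenced. All 46 tested members had more reads with doxycycline in each fraction. So did 330 of all 371 entries tested in the nuclear fraction and 347 of 359 in the total. After TMM scaling 22 of 46 tested members passed 2-fold in the higher direction and 10 in the lower in the nuclear fraction, against 30.5% and 33.7% of all 371 entries tested. In the total fraction these were 21 and 9 of 46, against 31.8% and 32% of 359. Scaled by library totals without miR-805, the nuclear split of the 46 members became 12 higher and 16 lower and the total split 13 and 13. The split over all entries is not given for this scaling. The median log2 fold of the tested members was 0.92 in the nuclear fraction and 0.86 in the total. Most members were under a mean of 10 without doxycycline, 28 in the nuclear fraction and 35 in the total. They were tested through the induced group where they are high, so these counts and medians are no evidence about the members as a whole. With at least 10 reads in both groups, 18 members remained in the nuclear comparison with a median of 0.68, against 0.32 for all 167 entries. In the total comparison 11 members remained with a median of 1.07, against 0.34 for all 137 entries. With that filter the embryonic stem cell markers had medians of 2.34 and 1.46 over 12 entries. The proximal group had a median of 1.71 over 9 entries in the nuclear comparison and 0.64 over 6 in the total.

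The largest gain with doxycycline in the nuclear fraction was that of miR-323-3p, with 159 mean reads against 0.333. This ratio of 478 rests on 1 read in the control and has an interval of 85.4 to 18919. In the total fraction miR-323-3p had 229 against 0.333, a ratio of 687 (123 to 27174), and miR-410 had 339 against 0.333, a ratio of 1016 (182 to 40169). miR-376a and miR-376b had firmer ratios, of 102 (66.3 to 168) and 93.4 (68.0 to 134) in the nuclear fraction and 90.9 (66.2 to 131) and 129 (95.8 to 182) in the total fraction. miR-369-5p, miR-1197 and miR-758 completed the 6 highest relative folds of the nuclear fraction, at 2.97 (0.47 to 8.29), 2.52 (0.01 to 7.84) and 2.43 (0.56 to 5.49), and each had at most 0.667 mean reads in the control.

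In the total fraction the 6 highest log2 folds were those of miR-410 at 4.98 (2.50 to 10.28), miR-323-3p at 4.41 (1.93 to 9.72), miR-380-3p at 4.17 (2.31 to 7.22), miR-543 at 3.63 (2.27 to 5.51), miR-495 at 3.41 (2.05 to 5.29) and miR-487b at 2.86 (0.37 to 8.17). miR-329, miR-539, miR-1193 and miR-1197 had no read in the total fraction without doxycycline. With the floor of 3 reads over the control group and TMM scaling, the log2 fold was at least 1.75 for miR-329, 0.01 for miR-1193, -0.07 for miR-539 and -0.57 for miR-1197. For the last 3 the shallow control could not show a gain relative to other entries.

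At the other end were members with nearly as many reads in control cells. miR-485, of which the star strand is the abundant one, had a mean of 18.3 nuclear reads with and 18 without doxycycline, a ratio of 1.02 (0.69 to 1.51). In the total fraction it had 25.7 and 5, a ratio of 5.13 (2.93 to 9.61). miR-679 had 22 and 19.7 nuclear reads, a ratio of 1.12 (0.78 to 1.62), and 24.7 and 2.33 total reads. miR-300* had 21.3 and 15 nuclear reads, a ratio of 1.42 (0.96 to 2.13), but 45 and 0.667 total reads. For these 3 entries the nuclear counting intervals included equal reads with and without doxycycline.

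miR-299 was the most abundant member in both control fractions, with a mean of 104 nuclear and 86.7 total reads, against 187 and 320 in induced cells. Its ratios were 1.79 (1.56 to 2.06) and 3.69 (3.22 to 4.25), and the hairpin took 24.6% and 25.7% of the cluster's reads in control cells against 3.00% and 2.78% in induced cells. Without the miR-299 hairpin the cluster's ratios were 28.3 in the nuclear fraction and 60.0 in the total. On the opposite strand at the same place RefSeq has miR-299b, and the table does not separate its reads from those of miR-299a. miR-376b* was similar, at 94.7 and 20.5 nuclear reads with and without doxycycline, a ratio of 4.62 (3.47 to 6.13), and 123 and 28.3 total reads, a ratio of 4.34 (3.42 to 5.56).

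Relative to the typical miRNA the lowest members of the nuclear comparison were miR-485 at a log2 fold of -3.94, miR-679 at -3.81, miR-300* at -3.46, miR-299 at -3.13, miR-380-5p at -2.03 and miR-376c* at -1.97. In the total fraction they were miR-299 at -3.12, miR-376b* at -2.89, miR-485 at -2.65, miR-376c* at -1.94, miR-679 at -1.61 and miR-323-5p at -1.46. These folds are negative only relative to other entries: without scaling all 12 were above 0.

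**Figure D5:**
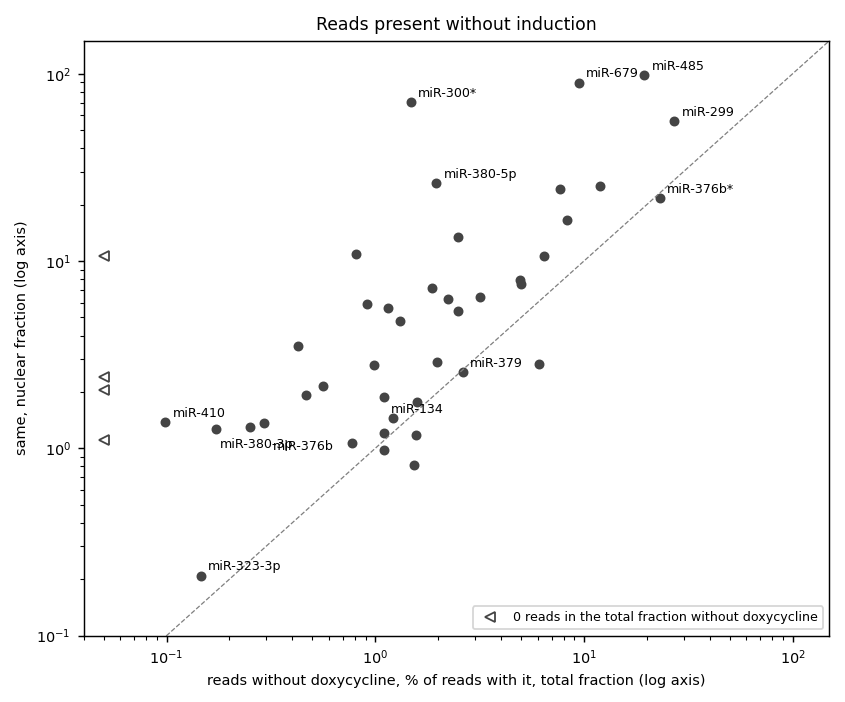
Mean reads without doxycycline as a percentage of mean reads with it, for the 45 entries with at least 10 reads in both induced groups, total fraction on the x axis and nuclear fraction on the y axis (log axes, not scaled to depth; dashed line: equal percentages). miR-485, miR-679, miR-300* and miR-299 lie above 50% in the nuclear fraction, and none does in the total fraction.

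The percentages of control to induced reads depend on depth, since the control libraries were far shallower. The median over members with at least 10 induced reads was 3.37% in the nuclear fraction and 1.51% in the total, against 5.90% and 2.70% over all such entries. The percentage was under 5% for 25 of 46 members and for 36 of 46, against 44.1% and 66.1% of all such entries. Above 50% lay 17.1% of all such entries in the nuclear fraction and 7.56% in the total. The members above 50% were miR-485 (98.2%), miR-679 (89.4%), miR-300* (70.3%) and miR-299 (55.8%) in the nuclear fraction, and 0 members in the total fraction. With the control reads subtracted, the members at least 2-fold lower in the nuclear than in the total fraction went from 0 to 3 of 47, namely miR-485, miR-679 and miR-300*. The matching count over all entries is not given. The part of reads unrelated to the induced protein in the nuclear values of these entries was not tested.

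Between the control fractions, 4 of 19 tested members passed 2-fold with a higher nuclear value and 3 with a lower one, against 23.8% and 16.9% of all 189 entries tested. Scaled by library totals the members' counts were 2 and 7, and those over all entries are not given for this scaling. All 4 higher members, miR-300*, miR-679, miR-485 and miR-369-3p, reached the minimum only in the nuclear control, so the filter favoured a higher nuclear value. With at least 10 reads in both controls 0 of 10 members were higher and 1 lower, against 12 and 14 of all 125 entries. Of the 19 tested members, miR-300* was highest with a log2 fold of 4.07 (2.13 to 7.15), then miR-679 with 2.65 (1.52 to 4.03). Lowest was miR-379 at -1.63 (-2.01 to -1.26), and miR-299 was at -0.16 (-0.40 to 0.08).

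Other features of the members were set beside the nuclear over total fold for the 45 with at least 10 reads in both induced groups. Distance from miR-379 had a Spearman's rho of -0.24 with the fold, and the log2 level in the total fraction one of -0.45. The level is part of the fold, so the second value is partly built in. For the 42 with a RefSeq sequence, GC content had a rho of -0.01, while G alone had -0.40 and C alone 0.47. The same values for 47 other entries matched by exact name were 0.00, -0.12 and 0.15. The split by single bases was chosen after the folds were seen, and related hairpins share base composition, so these are descriptions. Median folds were -0.17 for the 18 members that start with U, -0.11 for the 15 that start with A and -0.31 for the 8 that start with G. The letters AGUGUU, an element known from human miR-29b as a signal for the nucleus, occurred in 0 of the mature sequences of these 42.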

How the data were processed

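Small RNA bound to tagged AGO2 was sequenced in 12 libraries of 4 groups. The values are expected counts (estimated counts that need not be whole), which the authors deposited as 1 unscaled column per group. They were taken as means over 3 libraries, as most are whole after multiplication by 3. The submitters' processing notes name bcl2fastq 2.17.1, TopHat and mm10. How reads were counted is not given in the sources used here. Without per-library values the planned edgeR test could not be run. Folds are ratios of mean counts with TMM factors (edgeR 4.0.16, R 4.3.3), for entries with a mean of at least 10 in either group, and 2-fold is a rule of size. Intervals at 95% are Clopper-Pearson for ratios of reads, Wilson for shares and a normal approximation for odds and for differences of folds. They cover counting error only, since PCR reads without molecular identifiers are not independent molecules. A group at 0 was given a floor of 3 reads, summed over its libraries.

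Alternatives were other scaling, other filters, subtraction of control reads, and leaving out entries or hairpins. The procedure was tested on simulated data. The cluster was taken up for study, and the lists and the naming rule set (members with at least 100 reads, those at least 2-fold apart, the 6 highest and lowest per comparison, hairpins with both arms, shared seeds), with earlier results of these data known. Other work was done in Python 3.11.15 with SciPy 1.17.1, pandas 2.3.3, numpy 2.4.6 and, for plots, matplotlib 3.10.9.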

Additional observations from a re-analysis of the deposited data

How the results depend on the processing

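No paired analysis was possible because the table holds 1 mean per group and its columns carry no replicate number. For the same reason leaving out single libraries, and DESeq2, were not run. Nuclear over total with doxycycline, the members' median log2 fold was -0.53 without scaling, with 0 of 47 at least 2-fold higher and 8 lower. It was -0.32 without a filter, with 3 of 52 lower. With at least 10 reads in both groups 0 of 45 were higher, and with control reads subtracted 3 of 47 were lower. For doxycycline in the nuclear fraction, the median was 1.43 by library totals and 0.015 by totals without miR-805 (12 higher, 16 lower). It was 4.89 without scaling (42 and 0 of 46) and 2.03 without a filter (37 of 52 higher). With at least 10 in both groups it was 0.68 (7 and 4 of 18, against 61 and 66 of all 167 entries). In the total fraction it was 0.22 by totals without miR-805 (13 of 46 higher), 5.87 without scaling (46 and 0 of 46) and 1.66 without a filter (5 of 49 lower). With at least 10 in both groups it was 1.07 (6 and 2 of 11, against 50 and 50 of all 137 entries). For the other settings the counts over all entries are not given, so these counts describe the members only.

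Without scaling these log2 folds turned positive: in the nuclear fraction miR-299 (0.84), miR-300* (0.51), miR-679 (0.16), miR-485 (0.026), miR-376c* (2.00) and miR-380-5p (1.94), and in the total fraction miR-299 (1.88), miR-376b* (2.12), miR-679 (3.40), miR-485 (2.36) and miR-376c* (3.07). This follows from the scale factor itself, which shifts every log2 fold by 3.97 in the nuclear and 5.01 in the total comparison.

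Between the control fractions the median was -0.87 by library totals (2 higher and 7 lower of 19), 0.0070 by totals without miR-805 and 0.31 without scaling (1 lower). With at least 10 in both groups it was -0.30 (0 and 1 of 10, against 12 and 14 of all 125 entries). Without a filter 11 of 51 were higher and 13 lower. Except with at least 10 in both groups, the counts over all entries are not given for these settings. The members' counts are thus descriptions only.

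Without miR-805 in the sum the cluster took 2.74% of induced nuclear reads, 3.65% of nuclear control and 3.52% of total control reads. Without the miR-379 hairpin it took 2.36% and 2.73% when induced and 1.25% and 1.93% in the controls. Cluster over proximal reads, nuclear against total with doxycycline, were -0.25 on the log2 scale without miR-379, -0.11 without miR-136 and -0.047 without both, hairpins left out after the data were seen. With control reads subtracted the value was -0.30. With control reads subtracted, 10 of 14 hairpins had an arm interval that excluded no difference (5 higher and 5 lower in 5p share). Once the error of the control reads was added, a choice made after the data were seen, 7 did (3 and 4). The same arm led in both fractions in 12 of these 14, all but miR-299 and miR-666. No minimum of 10 reads was set for them, and the matching counts over hairpins outside the cluster are not given. In the control libraries few members reached 10 reads, so their folds have wide intervals. Apart from the scaling and subtraction cases above, causes were not tested.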
